A study of Homo sapiens with 12 samples.

Results

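Simple epithelial keratins, here the 5 genes KRT7, KRT8, KRT18, KRT19 and KRT80, were followed in KYSE150 cells depleted of ANLN. They were taken by gene symbol, and all 5 were present among the 58735 gene IDs of the 24 h table and the 38318 of the 48 h table, where protein-coding keratin genes numbered 55 and 35. KYSE150 is an established line of human oesophageal squamous cell carcinoma, and ANLN encodes anillin, an actin-binding scaffold of the contractile ring. One group of cells was transfected with an siRNA against ANLN (siANLN, genotype given as ANLN knockdown) and the other with a control siRNA (siNC, genotype given as WT), each for 24 h and for 48 h. All 4 groups are the same line, and each had 3 libraries of poly(A) RNA, 12 in all. The labels call the libraries biological replicates and do not say whether they came from separate transfections, so p-values measure the spread between these libraries. Neither the number of siRNAs against ANLN nor their sequences are given in the sources used here.

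Keratins are the intermediate filament proteins of epithelial cells, and each filament is built from pairs of a type I and a type II keratin. KRT8 (type II) and KRT18 (type I) form the usual pair of single-layered epithelia such as those of liver and gut, with KRT7 and KRT19 added in ducts and glands. Stratified squamous epithelium, the tissue from which oesophageal squamous carcinoma arises, instead rests on KRT5 and KRT14 in its basal layer, and squamous carcinoma lines often carry both sets. KRT80, a type II keratin, is known from many epithelia, stratified ones included, where its protein lies close to desmosomes, so its place among simple keratins is looser than that of the others.

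KRT18 and KRT19, the type I members, differ widely in level, and their coding sequence at the end of the central rod, a stretch alike in all keratins, shows how similar their transcripts are where keratins differ least. The reference sequences of this stretch (78 coding bases, from GENCODE 29 transcripts on GRCh38, 5′ to 3′ on the coding strand) are shown with the 53 bases that are the same in both genes in capitals.

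KRT18: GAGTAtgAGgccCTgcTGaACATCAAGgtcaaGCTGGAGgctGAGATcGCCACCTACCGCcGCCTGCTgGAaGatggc
KRT19: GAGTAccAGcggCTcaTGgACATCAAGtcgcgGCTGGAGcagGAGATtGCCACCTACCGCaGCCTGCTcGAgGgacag

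The shared bases are 67.9% of the stretch. It lies in exon 6 of 7 in KRT18 (chr12:52952254-52952331, plus strand) and in exon 6 of 6 in KRT19 (chr17:41523785-41523862, minus strand). Over all 5 members, none of the 150-base windows of a main transcript (between 1241 windows in KRT19 and 3710 in KRT80) matched another keratin transcript exactly, 150 bases being the read length. Only exact matches on the same strand were looked for. Overlaps with genes of the other strand and matches with mismatches are not covered, so this does not show that reads are unique to a member.

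After ANLN knockdown KRT80 and KRT18 moved in opposite directions. KRT80 fell at both times, to 64.7% of the siNC level at 24 h and 50.7% at 48 h. KRT18 rose by a small amount, 1.07-fold at 24 h and 1.22-fold at 48 h. KRT8, the partner of KRT18, was 1.05-fold higher at 48 h and did not pass the test at 24 h. KRT7 was low and did not pass the test at either time, and KRT19 was too low to be tested. In bulk RNA, fewer cells of a type and less RNA per cell cannot be told apart.

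**Figure D1:**
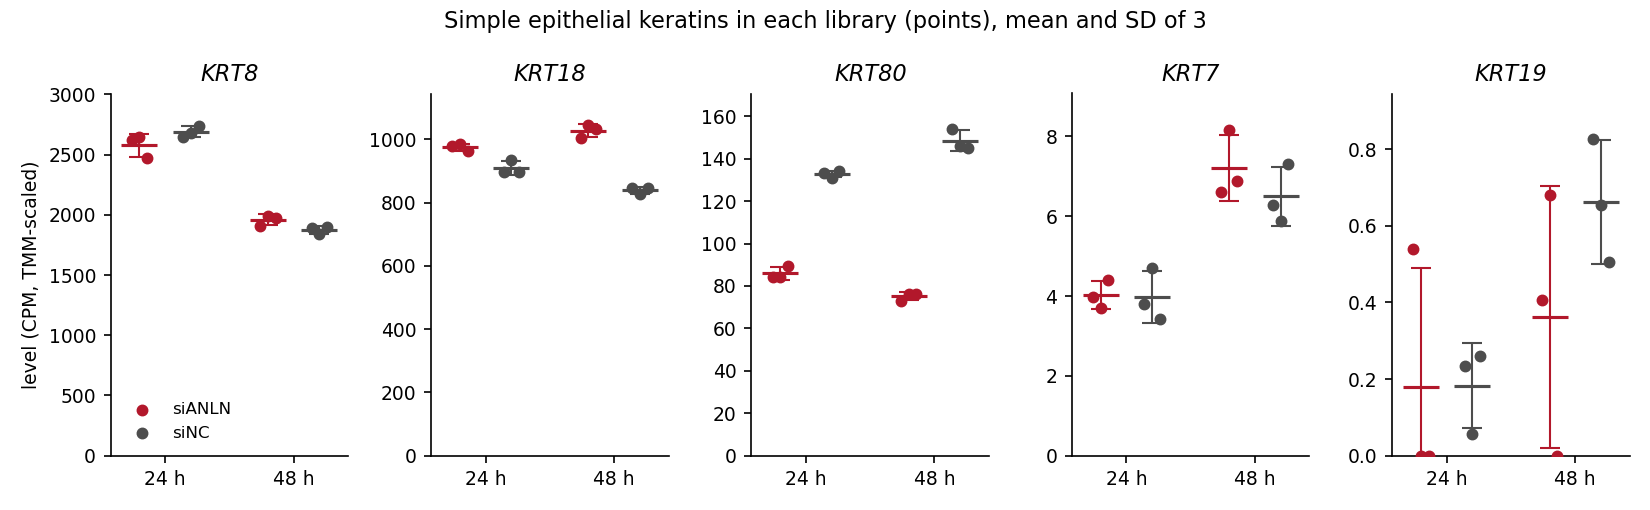
Level of each simple epithelial keratin (CPM scaled by TMM, linear axis from 0 and different for each gene) in the 3 siANLN (red) and 3 siNC (grey) libraries at each time; points are libraries, lines the mean and bars the SD. The KRT80 points of siANLN lie between 72.9 and 89.5 CPM and those of siNC between 131 and 154 CPM, while KRT7 and KRT19 points of the groups overlap.

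Read depth and the target were checked first. Total counts per library were between 14891932 and 17921808 at 24 h and between 11805488 and 12448411 at 48 h. ANLN had 104 ± 6.12 CPM in siANLN and 892 ± 17 CPM in siNC at 24 h (SD, n = 3 each), and 80.8 ± 5.36 CPM in siANLN and 731 ± 8.09 CPM in siNC at 48 h. That is 11.6% and 11.1% of the siNC level, and the log2 change did not pass a test of difference between the times (−0.05, SE 0.05, adjusted p = 0.59). CPM express counts relative to the library total after TMM adjustment. Changes are log2 of siANLN over siNC from edgeR's quasi-likelihood test with Benjamini-Hochberg adjustment over all genes tested, and a gene passed at an adjusted p under 0.05. By that rule 10.8% of the 14698 genes tested passed at 24 h and 43.6% of 16994 at 48 h, with a median log2 change of −0.005 and −0.003. Of the 4 members tested, 1 was higher and 1 lower at 24 h, where 5.93% and 4.86% of all genes were. At 48 h 2 were higher and 1 lower, where 22.2% and 21.3% of all genes were. With scaling by library totals the 48 h split turned, since 42.4% of the genes that passed were higher, against 51% with TMM. The tables of the 2 times were made separately, so a difference between the times carries both time and table, which cannot be told apart.

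Of the type II members, KRT8 (ENSG00000170421), the partner of KRT18, changed little. At 24 h it had 2618, 2646 and 2471 CPM in siANLN and 2650, 2677 and 2740 CPM in siNC. Every siANLN library was below every siNC library, but the log2 change of −0.06 (SE 0.03, 95% interval −0.12 to 0.0) did not pass the test (adjusted p = 0.27). At 48 h the siANLN libraries had 1909, 1993 and 1975 CPM and the siNC libraries 1888, 1837 and 1897 CPM. Here every siANLN library was above every siNC library, and KRT8 rose by 0.06 on the log2 scale (SE 0.02, adjusted p = 0.003). That call was lost when libraries were scaled by their totals alone (0.03, adjusted p = 0.226) and when the second siNC library was left out (0.05, adjusted p = 0.0772). These small changes rest on 38159 to 43680 counts per library in siANLN and 42334 to 47928 in siNC at 24 h, and on 23436 to 24128 in siANLN and 22481 to 22830 in siNC at 48 h.

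KRT80 (ENSG00000167767) had the largest change among the 4 members tested, at both times. Its level at 24 h was 84.0, 84.4 and 89.5 CPM in siANLN, against 133, 131 and 134 CPM in siNC. The groups were far apart relative to their spread, and the gene fell by 0.63 on the log2 scale (SE 0.04, adjusted p = 1.9e-19). At 48 h it was 72.9, 76.3 and 76.1 CPM in siANLN, against 154, 146 and 145 CPM in siNC. The fall was then 0.98 on the log2 scale (SE 0.04, 95% interval of the change −1.06 to −0.9, adjusted p = 6.6e-77), and it rests on 895 to 929 counts per library in siANLN and 1721 to 1858 in siNC. Only 1.59% of the genes tested at 24 h and 1.84% at 48 h had a change as low as that of KRT80 or lower. Its gene lies on the minus strand of chr12:52168996-52192000, inside the non-coding gene LINC00592 of the other strand, which itself had 22 counts over the 6 libraries at 24 h and 17 at 48 h.

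KRT7 (ENSG00000135480), the ductal type II keratin used by pathologists to type carcinomas, was expressed at a low level. It had 3.97, 3.7 and 4.4 CPM in siANLN and 3.8, 4.69 and 3.43 CPM in siNC at 24 h. At 48 h the values were 6.6, 8.16 and 6.88 CPM in siANLN and 6.28, 5.88 and 7.32 CPM in siNC. The groups overlapped at both times, and neither change passed the test (log2 0.01, SE 0.2, adjusted p = 0.99 at 24 h, and 0.15, SE 0.14, adjusted p = 0.42 at 48 h). With 53 to 84 counts per library at 24 h and 72 to 96 at 48 h, the 95% intervals ran from −0.38 to 0.4 and from −0.13 to 0.43. Changes within these intervals remain compatible with the data. KRT7 overlaps the antisense gene KRT7-AS over 2401 bases, and the strand setting of the counting is not given in the sources used here, so reads of the pair cannot be told apart there. KRT7-AS had 379 counts over the 6 libraries at 48 h, beside 496 for KRT7, and 19 beside 390 at 24 h. KRT7 also overlaps KRT86 on its own strand over 2887 bases, where the strand would not separate reads. KRT86 had 58 counts over the 6 libraries at 24 h and 55 at 48 h. The pseudogene KRT87P overlaps KRT7 on the other strand over 1721 bases, with 40 counts at 24 h and 41 at 48 h.

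Of the type I members, KRT18 (ENSG00000111057), the partner of KRT8, was higher in siANLN at both times. At 24 h it had 978, 984 and 962 CPM in siANLN and 897, 935 and 896 CPM in siNC. All siANLN libraries lay above all siNC libraries, and the rise was 0.10 on the log2 scale (SE 0.03, 95% interval 0.04 to 0.16, adjusted p = 0.034). The 24 h call sits near the threshold: the value stayed between 0.09 and 0.12 with any single library left out, but the adjusted p was 0.114 and 0.101 without the first and the second siANLN library, and 0.136 and 0.114 without the first and the third siNC library. At 48 h the values were 1004, 1045 and 1034 CPM in siANLN and 847, 827 and 845 CPM in siNC. The groups stood well apart, and KRT18 rose by 0.29 (SE 0.02, adjusted p = 5.1e-33), or 22.3% above siNC, on 12293 to 12627 counts per library in siANLN and 10048 to 10242 in siNC. A rise as large or larger was seen in 24.2% of the genes tested at 24 h and 13.7% at 48 h, so the size itself was common.

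KRT19 (ENSG00000171345), a type I keratin of ducts with almost no tail, was close to undetected. It had 8, 0 and 0 counts in siANLN and 4, 1 and 4 counts in siNC at 24 h, and 5, 8 and 0 counts in siANLN and 10, 8 and 6 counts in siNC at 48 h. A count of 0 allows up to 3 counts, that is 0.167 to 0.201 CPM at 24 h and 0.241 to 0.254 CPM at 48 h, counting error only. It did not reach the minimum count for testing. Fitted without that minimum, its log2 change was −0.05 (SE 1.01, adjusted p = 0.99) at 24 h and −0.86 (SE 0.55, adjusted p = 0.36) at 48 h, so no difference could be read at this depth.

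**Figure D2:**
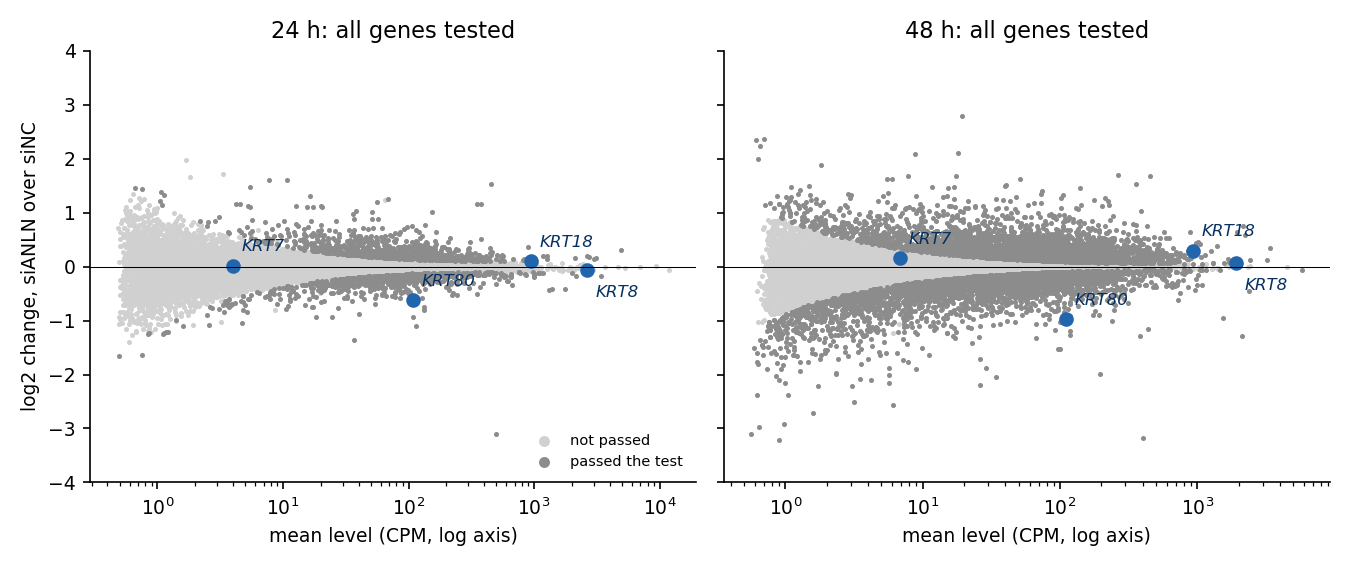
Log2 change of siANLN over siNC (vertical axis) against mean level (CPM, log axis) for every gene tested at 24 h (left) and 48 h (right), with genes that passed the test in dark grey and the 4 tested simple epithelial keratins in blue. KRT80 lies at −0.63 and −0.98, KRT18 at 0.10 and 0.29, and KRT8 and KRT7 lie near 0.

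The changes at 48 h differed from those at 24 h in 3 of the 4 members tested, where 13% of the 17625 genes tested for this difference passed, 8.29% with a change higher at 48 h and 4.71% with one lower at 48 h. The fall of KRT80 was deeper at 48 h, by −0.34 on the log2 scale (SE 0.06, adjusted p = 1.2e-05). KRT18 differed by 0.21 (SE 0.04, adjusted p = 4e-05), so its rise was larger at 48 h. For KRT8 the difference was 0.14 (SE 0.04, adjusted p = 0.0055), and it was lost when libraries were scaled by their totals alone (0.09, adjusted p = 0.0907). KRT7 did not pass (0.16, SE 0.23, adjusted p = 0.8). That scaling also changed the split of all genes that passed: 63.7% of them were higher at 48 h with TMM and 44.5% with library totals.

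Levels of different genes can be compared only per length. In the authors' deposited FPKM, which divide counts by gene length and library total, KRT8 and KRT18 stood well above KRT80 in every group, and KRT7 and KRT19 far below it. At 24 h KRT8 had 377 ± 13.5 FPKM in siANLN and 393 ± 6.39 FPKM in siNC, and KRT18 had 305 ± 3.34 FPKM in siANLN and 284 ± 6.93 FPKM in siNC (SD, n = 3 each). At 48 h KRT8 had 281 ± 6.19 FPKM in siANLN and 275 ± 4.58 FPKM in siNC, and KRT18 had 330 ± 6.64 FPKM in siANLN and 276 ± 3.58 FPKM in siNC. On this scale the 2 partners were therefore level in siNC at 48 h, within their spread, while KRT18 stood above KRT8 in siANLN. KRT80 followed with 17 ± 0.417 FPKM in siANLN and 34.2 ± 1.2 FPKM in siNC at 48 h, then KRT7 with 1.78 ± 0.205 FPKM in siANLN and 1.64 ± 0.183 FPKM in siNC. KRT19 was lowest, at 0.153 ± 0.144 FPKM in siANLN and 0.286 ± 0.0704 FPKM in siNC. The order of KRT8 and KRT18 depends on the length used. Dividing by FPKM implies 6881 bases for KRT8 at 48 h, whereas its main transcript has 1882. Per kilobase of the main transcripts KRT8 had 1041 ± 23.6 CPM in siANLN and 996 ± 17.3 CPM in siNC, above the 658 ± 13.6 CPM in siANLN and 538 ± 7.02 CPM in siNC of KRT18.

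The balance of the pair within a library does not depend on how libraries are scaled. At 24 h the FPKM ratio of KRT8 to KRT18 was 1.25, 1.26 and 1.2 in siANLN and 1.38, 1.34 and 1.43 in siNC. At 48 h it was 0.848, 0.851 and 0.852 in siANLN and 0.994, 0.99 and 1.0 in siNC. No siANLN library reached the lowest siNC ratio at either time, and the groups had a mean log2 difference of −0.162 at 24 h and −0.227 at 48 h. A two-sided exact permutation test gave p = 0.1 at each time, the smallest p that this test can give with 3 libraries against 3. The genes KRT8 and KRT18 overlap on opposite strands over 1084 bases, where reads cannot be assigned without the strand. Pseudogenes of KRT8 and KRT18 also exist in number (50 and 67 in GENCODE 29, all listed at 24 h, and 37 and 47 of them at 48 h). Counts of those listed were at most 1.39% of the KRT8 sum and at most 0.995% of the KRT18 sum in any library, and adding them to the members changed no call.

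**Figure D3:**
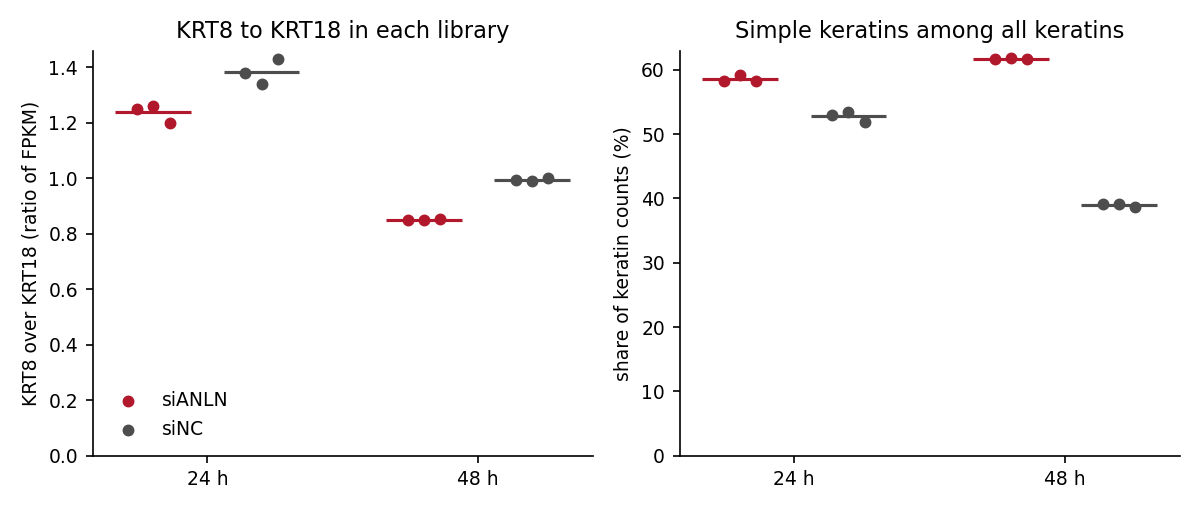
Left, ratio of KRT8 to KRT18 (authors' FPKM) in each library; right, share of all keratin counts held by the 5 simple epithelial keratins (%), siANLN in red and siNC in grey, lines at the mean of 3. Both axes start at 0; the ratio is lower in siANLN than in siNC at each time, and the share is 61.7% in siANLN against 39.0% in siNC at 48 h.

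Set against all keratin transcripts, the simple epithelial keratins held a larger share of counts after the knockdown. Their own summed level was 3527 to 3718 CPM in siANLN and 3684 to 3774 CPM in siNC at 24 h, where the groups overlap, and 2993 to 3123 CPM in siANLN and 2817 to 2896 CPM in siNC at 48 h. At 24 h they held 58.3% to 59.2% of keratin counts in siANLN and 51.9% to 53.5% in siNC. At 48 h they held 61.7% to 61.8% in siANLN and 38.7% to 39.2% in siNC. KRT8 alone made up 39.4% of keratin counts in siANLN and 25.4% in siNC at 48 h, KRT18 20.7% in siANLN and 11.4% in siNC, and KRT80 1.51% in siANLN and 2.01% in siNC. The denominator was lower in siANLN at both times: keratins of every kind took 0.49% of all counts in siANLN and 0.743% in siNC at 48 h, and 0.62% in siANLN and 0.707% in siNC at 24 h. KRT5, KRT14, KRT15, KRT6A, KRT16 and KRT17 together held 37.3% of keratin counts in siANLN and 60.4% in siNC at 48 h. These shares are descriptions of the libraries, with no test.

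The other keratins were also read gene by gene. Beside these counts, 5.93% of all genes tested rose and 4.86% fell at 24 h, and 22.2% rose and 21.3% fell at 48 h. Among 26 other type I keratins 6 were tested, of which 3 fell and none rose at 24 h (median log2 change −0.35), and 4 fell and none rose at 48 h (median −1.1). KRT14, KRT16 and KRT17 fell at both times and KRT15 at 48 h. KRT9 (−0.36 at 24 h and −0.44 at 48 h) and KRT10 (−0.07 at 24 h and 0.01 at 48 h) did not pass at either time. KRT17, a keratin of stressed and proliferating epidermis, averaged 222 ± 10.6 CPM in siANLN and 539 ± 16.9 CPM in siNC at 48 h (log2 −1.28, SE 0.03). KRT14 averaged 269 ± 7.39 CPM in siANLN and 601 ± 18.7 CPM in siNC (−1.16, SE 0.03). Among 23 other type II keratins, 2 of 5 tested fell at 24 h (median −0.41) and 3 of 4 at 48 h (median −1.28), and none rose. KRT5, the basal keratin, averaged 1242 ± 18.4 CPM in siANLN and 3011 ± 72.5 CPM in siNC at 48 h (−1.28, SE 0.02). KRT81 was the third to fall at 48 h. Values of KRT6A, KRT14, KRT16 and KRT17 are uncertain, since near-identical relatives or pseudogenes of these genes exist in the genome and reads could be split among them. KRT80 changed in the direction of KRT5 and KRT6A and not in that of KRT18, and no test compared genes with each other.

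**Figure D4:**
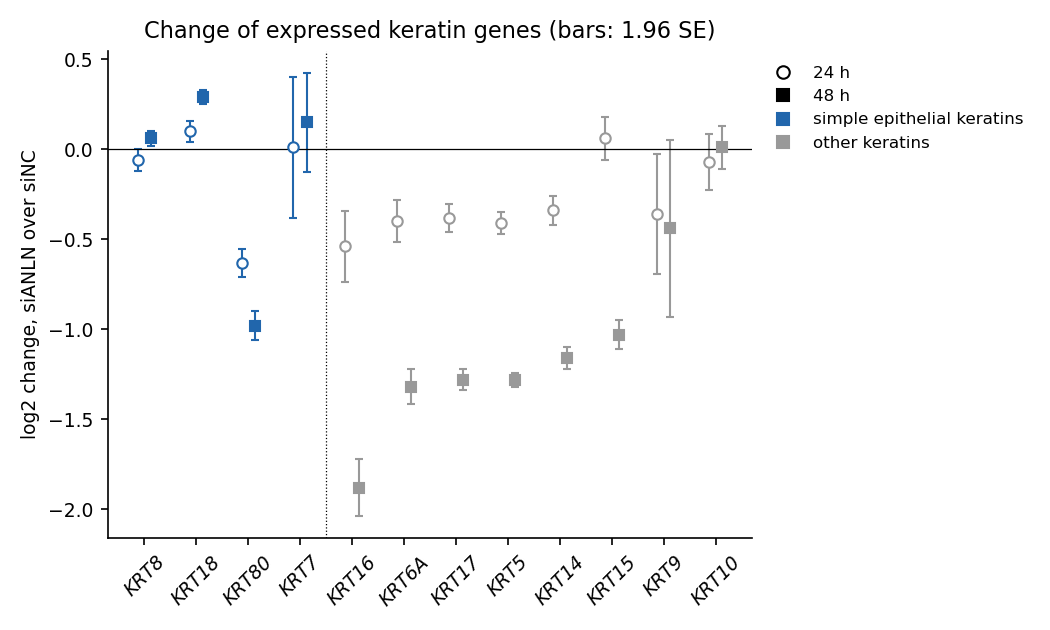
Log2 change of siANLN over siNC (vertical axis) for the 12 keratin genes tested at both times with a mean of at least 1 CPM; open circles are 24 h, filled squares 48 h, bars 95% intervals, simple epithelial keratins in blue and others in grey. KRT8, KRT18 and KRT7 lie between −0.06 and 0.29, while KRT80 and 6 of the 8 others lie below −0.9 at 48 h.

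KRT80, KRT7, KRT8 and KRT18 lie on chromosome 12, where the type II keratin genes form a cluster. KRT80 and KRT7 are at one end of it and KRT8 at the other, beside KRT18, the type I gene found there. From KRT80 to KRT18 the annotation has 27 protein-coding genes over 784 kb. At 24 h KRT18 was higher, KRT80, KRT6A and KRT5 were lower, 5 did not pass the test and 18 were not tested. At 48 h KRT8 and KRT18 were higher, KRT80, KRT81, KRT6A and KRT5 were lower, 2 did not pass, 16 were not tested and 3 were not listed. Over all genes tested, 5.93% were higher and 4.86% lower at 24 h, and 22.2% were higher and 21.3% lower at 48 h. The genes that were higher at 48 h are the neighbouring pair at one end, KRT8 (chr12:52897187-52949954, minus strand) and KRT18 (chr12:52948871-52952901, plus strand). KRT8 was at −0.06 at 24 h and did not pass. Its 48 h call was lost in some alternatives, such as scaling by library totals (0.028). KRT80 stands at the other end, and its lowest coordinate is 63.5 kb from that of KRT7 (chr12:52232520-52252186, plus strand). KRT19 lies on chromosome 17 (chr17:41523617-41528308, minus strand), with other type I genes.

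**Figure D5:**
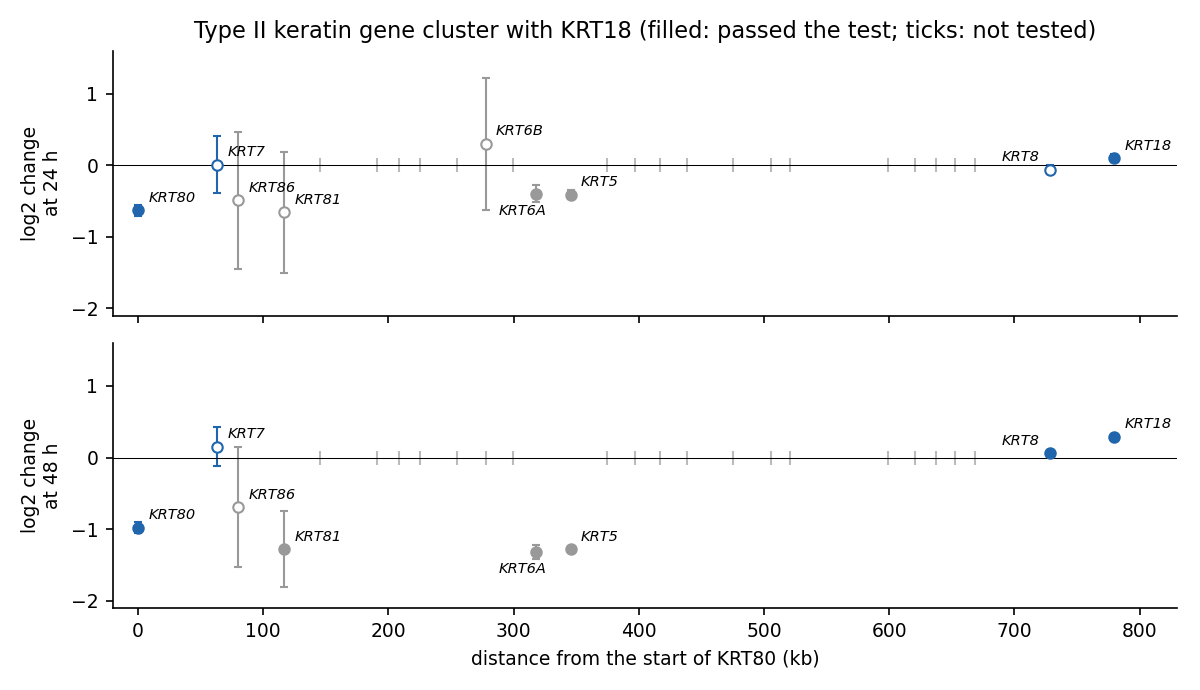
Log2 change of siANLN over siNC along the keratin cluster of chromosome 12 at 24 h (top) and 48 h (bottom). The horizontal axis is the distance in kb between the lowest coordinates of each gene and of KRT80. Bars are 95% intervals, filled points passed the test, open points did not, ticks are genes not tested, and simple epithelial keratins are blue. KRT80 at 0 kb and KRT6A and KRT5 in the middle are below 0, and KRT18 at the far end is above 0 at both times.

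Genes with the pattern most like that of each member over the 12 libraries were taken from 9515 protein-coding genes, by the root mean square over libraries of the difference between both genes, each as log2 CPM less its siNC mean at that time. KRT18 was closest to PLIN3 (0.02), TUFM (0.024) and TACC3 (0.025), where the median gene differed from it by 0.182. KRT8 was closest to RPL8 and LRP10 (0.022 each) and TIMM50 (0.023), with a median of 0.128. No gene was as close to KRT80: TNRC6A differed by 0.081, ETNK1 by 0.088 and CPA4 by 0.092, with a median of 0.592. These distances describe libraries that all genes share and carry no test. CPA4, which encodes a carboxypeptidase, had log2 changes of −0.58 at 24 h and −1.08 at 48 h.

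Transcripts of proteins that attach keratins to junctions and the cytoskeleton changed in part. Of 15 linkers and organisers tested at 24 h, 1 rose and 4 fell, and of 14 tested at 48 h 2 rose and 8 fell (median log2 −0.06 and −0.11). Over all genes tested, 5.93% rose and 4.86% fell at 24 h, and 22.2% rose and 21.3% fell at 48 h, which holds for the lists below too. FAM83H, a keratin organiser, was the gene not tested at 48 h. It averaged 260 CPM in siANLN and 271 CPM in siNC at 24 h, and 0.0544 CPM in siANLN and 0.11 CPM in siNC at 48 h, a gap that carries time and table. PPL, periplakin, fell to 188 ± 2.62 CPM in siANLN, against 299 ± 2.11 CPM in siNC at 48 h (−0.67, SE 0.03), and PKP1, a desmosomal plaque protein, changed by −0.52 (SE 0.03). PKP2, the plakophilin also found in simple epithelia, averaged 186 ± 4.65 CPM in siANLN and 160 ± 6.08 CPM in siNC (0.21, SE 0.03), and MACF1, a cytoskeletal crosslinker, changed by 0.15 (SE 0.03). JUP, plakoglobin, fell by 0.15 at each time (SE 0.03 at 24 h and 0.02 at 48 h), and PPL and PKP1 fell at 24 h too. PLEC, plectin, averaged 2007 ± 109 CPM in siANLN and 2267 ± 82.4 CPM in siNC at 24 h (−0.18, SE 0.03), and its change of −0.02 at 48 h did not pass (adjusted p = 0.54).

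Of 16 chaperones, modifiers and turnover genes tested at 24 h, 2 rose and 4 fell (median −0.02), and of 15 at 48 h 6 rose and 3 fell (median 0.06). HSPA8, a constitutive heat shock protein, rose by 0.13 (SE 0.03) at 24 h and 0.39 (SE 0.02) at 48 h. SFN, a 14-3-3 protein of stratified epithelia, fell by 0.27 (SE 0.03) at 24 h and 0.35 (SE 0.02) at 48 h. TGM2, a transglutaminase that crosslinks keratins, fell by 0.28 (SE 0.03) at 24 h and did not pass at 48 h (adjusted p = 0.92). HSPB1, a small heat shock protein, fell by 0.2 (SE 0.02) at 48 h. YWHAZ, another 14-3-3 protein, fell at both times, and SQSTM1, an autophagy receptor, at 24 h.

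Transcription factors known to act on epithelial keratin genes moved both ways. Of 25 tested, 3 rose and 2 fell at 24 h, and 8 rose and 10 fell at 48 h (median −0.05 at each time). AP-1 and ETS factors are known to act through the first intron of KRT18. FOSL1, an AP-1 subunit, averaged 196 ± 2.81 CPM in siANLN and 88.6 ± 5.91 CPM in siNC at 48 h (1.15, SE 0.04). FOS, another, averaged 57.0 ± 3.57 CPM in siANLN and 128 ± 1.56 CPM in siNC at 48 h (−1.17, SE 0.04). Of the other AP-1 subunits at 48 h, JUN changed by 0.53 (SE 0.03), JUND by 0.15 (SE 0.04) and JUNB by −0.23 (SE 0.03). FOSL2 did not pass at 48 h, and none of these subunits passed at 24 h. ETS1 averaged 299 ± 5.86 CPM in siANLN and 164 ± 6.31 CPM in siNC at 48 h (0.87, SE 0.03), after a rise of 0.18 (SE 0.04) at 24 h. ETS2 rose by 0.32 (SE 0.04) and TFAP2C by 0.21 (SE 0.06) at 24 h. At 48 h ETS2 rose too (0.54, SE 0.04), while ELF3, another ETS factor of the list, fell by 0.76 (SE 0.06). TP63, the regulator of squamous basal cells, fell by 0.43 (SE 0.03) at 48 h. KLF4 and TFAP2A fell by 0.25 (SE 0.05) and 0.16 (SE 0.05) at 24 h.

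Among other intermediate filament genes, which include the lamins of the nucleus, of 6 tested at 24 h 1 rose and none fell (median 0.08), and of 7 at 48 h 4 rose and 1 fell (median 0.23). LMNB1 rose by 0.13 (SE 0.04) at 24 h and 0.23 (SE 0.03) at 48 h, LMNB2 by 0.36 (SE 0.03) at 48 h, and SYNM, synemin, fell by 0.56 (SE 0.09). LMNA and VIM were the other two that rose at 48 h.

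Markers of cell types were read beside these values. Of 18 further genes of simple or glandular epithelium, 7 were tested at 24 h, of which none rose and 2 fell, and 8 at 48 h, of which 1 rose and 4 fell (median −0.13 and −0.24). KRT20, CDX2, MUC13, PROM1 and CFTR were among those at 0 in every library at 24 h. EPCAM, an epithelial adhesion molecule, averaged 158 ± 5.55 CPM in siANLN and 142 ± 4.03 CPM in siNC at 48 h (0.15, SE 0.04), CLDN4, a tight junction claudin, 369 ± 14.8 CPM in siANLN and 466 ± 6.96 CPM in siNC (−0.34, SE 0.03), and CD24, a surface glycoprotein, changed by −1.22 (SE 0.1). CDH1, E-cadherin, fell by 0.13 (SE 0.03) at 24 h and 0.22 (SE 0.02) at 48 h, and CLDN4 fell at 24 h as well. Of 9 squamous markers, which include basal keratins already described, 8 were tested at each time. Of these, 5 fell at 24 h and 8 at 48 h (median −0.26 and −1.1). SOX2 was not tested at either time, and averaged 0.324 CPM in siANLN and 0.318 CPM in siNC at 24 h. The summed level of the squamous markers was 2283 to 2344 CPM in siANLN and 4945 to 5170 CPM in siNC at 48 h. KYSE150 cells thus carried both the squamous keratins and KRT8 with KRT18, with KRT7 low and KRT19 close to undetected.

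Mesenchymal markers summed to 169 to 173 CPM in siANLN and 186 to 198 CPM in siNC at 48 h. None of the 6 tested passed at 24 h (median −0.02), and 2 rose and 2 fell of 6 at 48 h (median 0.12): VIM changed by 0.57 (SE 0.16), ZEB1 by 0.65 (SE 0.19), COL1A1 by −0.9 (SE 0.1) and FN1 by −0.25 (SE 0.04), and COL1A2 was at 0 at both times. Of 5 immune markers 1 was tested at each time, CD14 at 24 h and CD68 at 48 h. PTPRC was at 0 at 24 h. CD68, which epithelial cells can also express, averaged 63.8 ± 0.283 CPM in siANLN and 38.6 ± 3.83 CPM in siNC at 48 h (0.73, SE 0.06). That is most of the list's sum of 64.5 to 64.8 CPM in siANLN and 35.9 to 42.0 CPM in siNC. At 24 h the whole list, CD68 included, summed to 0.713 to 1.58 CPM in siANLN and 0.782 to 1.42 CPM in siNC. The tables of both times were made separately, so this gap in CD68 carries both time and table. Of 3 endothelial markers none was tested at 24 h, and VWF was lower at 48 h (−1.43, SE 0.38), with all 3 together at 0.51 to 0.978 CPM in siANLN and 1.32 to 2.1 CPM in siNC. The part of these values in the keratin changes was not tested.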

How the data were processed

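Poly(A) RNA of KYSE150 cells was extracted with Trizol and sequenced in pairs (HiSeq Xten), per the labels' protocols. The authors used cutadapt 1.18, STAR 2.7.3a, featureCounts and DESeq2 1.44.0 with GRCh38, per the submitters' processing notes. They deposited whole-number counts per gene and FPKM (per gene length and library total), in separate tables for 24 h and 48 h. At 48 h 202 IDs appeared repeatedly, with no difference in their values, and each was used once.

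The test was edgeR's quasi-likelihood test (edgeR 4.0.16 in R 4.3.3, robust, filterByExpr) on TMM-scaled counts, within each table, over 3 libraries per group, two-sided, with Benjamini-Hochberg adjustment. The adjusted p-values in the text are from this test unless another is named. The difference between the times was a contrast over 12 libraries and the 35484 IDs in both tables. FPKM served for levels per length, the KRT8 to KRT18 ratio and alternatives with limma 3.58.1, on log2(FPKM + 0.1) and log2(FPKM + 1). DESeq2 1.42.0 was another alternative. The scripts were tested on simulated counts. Symbols and coordinates (counted from 1) are from GENCODE 29, and the sequences are its transcripts on GRCh38. Libraries of a group differed by more than counting noise (chi-square per degree of freedom 1.27 to 2.72), so none was treated as a re-sequencing of another. These values cannot tell separate transfections from separate preparations of the same RNA. The p-values rest on a small spread between libraries, with a common biological coefficient of variation in edgeR of 0.039 at 24 h and 0.02 at 48 h.

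The members and the 11 other gene lists were chosen with earlier results of these data known. From each list, at each time, up to 2 genes per direction that passed with the smallest adjusted p and a mean of at least 5 CPM are named. Other genes are named where a count of 5 or fewer, a listing at 0, a gap between the tables or an opposite change in the same family calls for it. They were chosen after their values were seen. Intervals of single counts cover counting error only. Some genes and sequences that this selection takes are not reported here.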

Additional observations from a re-analysis of the deposited data

Results flagged for a closer look

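The change after ANLN knockdown differed between 48 h and 24 h in 3 simple epithelial keratins, by edgeR's test of the difference of the changes (48 h minus 24 h, log2). KRT80 differed by −0.34 (SE 0.06, adjusted p = 1.2e-05), with changes of −0.98 at 48 h and −0.63 at 24 h. KRT18 differed by 0.21 (SE 0.04, adjusted p = 4e-05), with 0.29 at 48 h and 0.10 at 24 h. KRT8 differed by 0.14 (SE 0.04, adjusted p = 0.0055), with 0.06 at 48 h and −0.06 at 24 h. The median difference over all genes tested was 0.014. Time and the making of the tables cannot be told apart.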

How the results depend on the processing

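KRT80 kept its direction and its call in every alternative run, with changes of −0.656 to −0.604 at 24 h, −1.015 to −0.954 at 48 h and a difference between the times of −0.386 to −0.309. KRT18 did so at 48 h (0.255 to 0.307) and for the difference (0.156 to 0.224). At 24 h the KRT18 call was lost with no filter on low counts (0.095, adjusted p = 0.0672), with limma on log2(FPKM + 0.1) and on log2(FPKM + 1) (0.1 each), and in 4 of the 6 runs that left out a library (0.089 to 0.098, in a range of 0.089 to 0.12 over all 6). The KRT8 call at 48 h was lost with library totals as the scale (0.028), with limma at both pseudocounts (0.029 each) and in 1 of the 6 runs that left out a library (0.049, in a range of 0.049 to 0.082). The KRT8 difference between the times was lost with library totals (0.09). KRT7 at 24 h, which passed nowhere, was negative without the third siANLN library (−0.058), the first siNC library (−0.024) and the third siNC library (−0.081), in a leave-one-out range of −0.081 to 0.151. The KRT8 to KRT18 ratio, with libraries left out as added after seeing the data, differed by −0.185 to −0.138 at 24 h and −0.23 to −0.223 at 48 h. Genes called at 24 h numbered 1585 with edgeR, 642 and 602 with limma on FPKM, and 1133 with DESeq2; at 48 h they numbered 7402 with edgeR and 5042 with DESeq2. The causes were not tested.

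Same-numbered libraries did not deviate together (correlations −0.011 to 0.027), so no effect shared by a replicate number was seen. Libraries can be paired by design without such an effect, so whether they were paired stays unknown. With the replicate block, 1772 genes were called at 24 h, 7355 at 48 h and 2392 for the difference, and no member's call changed. Depth limits KRT7 and KRT19, and total counts were lower at 48 h. Mitochondrial genes numbered 37 at 24 h, with 3.421% to 3.593% of counts, and 0 were listed at 48 h. The totals of both times thus do not cover the same genes.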

Other observations

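SQSTM1, whose protein p62 gathers in keratin aggregates, was chosen after its values were seen. It averaged 470 ± 15.1 CPM in siANLN and 511 ± 7.57 CPM in siNC at 24 h, and 1.44 ± 0.161 CPM in siANLN and 1.19 ± 0.364 CPM in siNC at 48 h. CD68 stood the other way round between the tables, at 0.176 ± 0.144 CPM in siANLN and 0.0626 ± 0.0648 CPM in siNC at 24 h, and at 63.8 ± 0.283 CPM in siANLN and 38.6 ± 3.83 CPM in siNC at 48 h. KRT7-AS had 0 to 7 counts per library at 24 h and 51 to 74 at 48 h.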
